A study of Homo sapiens with 5 samples.

Results

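Hyaluronan is a long unbranched sugar chain of the matrix around cells, and 9 genes that make it (HAS1, HAS2 and HAS3), bind it (CD44, TNFAIP6 and VCAN) or break it down (HYAL1, HYAL2 and HYAL3) were followed across 5 arrays of MCF12A, a human breast epithelial cell line that does not form tumours. The genes were listed by name, with earlier results of these arrays known, out of 18724 genes that had a probe set annotated with exactly 1 symbol on either array design. Of the 9, 5 (HAS2, CD44, TNFAIP6, VCAN and HYAL2) had such a probe set in both tables of values, and HAS3 had one only for the soft agar clone and its control. On the other arrays the HAS3 probe set also carries the symbol of another gene, so it gave no value there. HAS1, HYAL1 and HYAL3 were not analysed here. Each measured gene had a single probe set per table.

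Total RNA was hybridised to Affymetrix Gene ST arrays, 1 array per group. The groups were cells grown for 4 weeks with 2.5% ethanol, cells grown for 4 weeks with 1% acetaldehyde (which forms when ethanol is oxidised), an untreated control for both, a soft agar clone from ethanol-exposed cells, and a control for that clone. All cultures were monolayers in DMEM/F12 with horse serum, insulin of bovine origin, cholera toxin, hydrocortisone and epidermal growth factor. The clone is a single cellular clone that grew without anchorage and was then expanded, and the protocols mention further exposure of it to ethanol. Its label gives 4 weeks of exposure, but its arrays are of the design that the protocol assigns to 1-week exposures, so its exposure time is in doubt. Its dose is given as 2.5% in one label and as 2.5 mM in another. Its control is labelled as unexposed but also bears a soft agar tag. A single array per group gives no spread between cultures, so every difference below is between 2 arrays, untested, and the precision is limited by the number of arrays.

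Hyaluronan is built at the cell surface by the HAS synthases, which join 2 alternating sugars and extrude the growing chain. CD44 is its main surface receptor, TNFAIP6 (also called TSG-6) carries proteins onto the chain, and versican, the product of VCAN, is a large proteoglycan that binds it along its length. The hyaluronidases cut it, HYAL2 at the cell surface and HYAL1 in lysosomes. In breast and other epithelia a coat rich in hyaluronan is known from wound repair and from motile cells, and HAS2 has been linked to the loss of epithelial character.

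Epithelial markers were measured on every array, and they differed in direction after ethanol. KRT5, the main basal keratin, had intensities of 3629 in ethanol, 6194 in acetaldehyde and 6056 in the control, and 4159 in the clone against 12956 in its control. CDH1, which encodes E-cadherin, had 117 in ethanol, 1262 in acetaldehyde and 1114 in the control, and was under the table median in the clone. Over 4 measured basal markers the summed intensity was 4715 in ethanol, 10731 in acetaldehyde and 10933 in the control, and 4891 in the clone against 21371 in its control. Over 6 luminal markers it was 4437, 5606 and 4891 on the first 3 arrays, and 5809 in the clone against 7718 in its control. The luminal keratin KRT8 was 2.08-fold higher in ethanol, at 3068 against 1474 in the control, whereas EPCAM was 7.19-fold and CD24 at least 8.27-fold lower. KRT18 and KRT19 had log2 differences of 0.03 and 0 in ethanol. In the clone KRT8 and KRT18 had 0.06 and 0.20, and EPCAM and CD24 were at least 4.10-fold and at least 11.8-fold lower.

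Some markers of other cell types reached the table median on every array, controls included. Among fibroblast markers these were 3 of 7 in the control and 4 of 7 in the clone's control. A few markers were higher in cultures where HAS2 and VCAN were high. The summed intensity of 7 fibroblast markers was 555 in ethanol, 556 in acetaldehyde and 482 in the control, and 1680 in the clone against 847 in its control. Of these, 1 (DCN) was at least 2-fold higher in ethanol and in acetaldehyde on the values as deposited. In the clone 3 were (DCN, COL1A1 and COL3A1), and no fibroblast marker was at least 2-fold lower in any exposed culture. COL1A2 and PDGFRB were lower in the clone without reaching 2-fold, at 123 and 103 against 142 and 136 in its control. DCN, the decorin gene, had 88.1 in ethanol and 98.0 in acetaldehyde against 31.4 in the control, and 167 in the clone against 45.3 in its control. Both DCN controls were under the table median, so the bounds were at least 1.25-fold, 1.40-fold and 1.81-fold higher in the same order. The collagen genes COL3A1 and COL1A1 had 538 and 687 in the clone, against 128 and 310 in its control, and differed by at most 0.11 (log2) in ethanol and acetaldehyde. LUM and THY1 were under the table median on all 5 arrays. The sum of 4 adipocyte markers was 2356 in ethanol, 321 in acetaldehyde and 205 in the control, and 1216 in the clone against 320.0 in its control, with ADIPOQ and LEP under the table median on all 5 arrays. Most of the high sums is FABP4, a fatty acid carrier, at 2163 in ethanol and 962 in the clone. Of 4 endothelial and 4 measured leukocyte markers, at most 1 and 2 reached the table median on any array. The endothelial one was KDR, at 275 in the clone against 69.3 in its control, at least 2.99-fold higher. The part of such markers in the values below was not tested.

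HAS2, a synthase of long chains, was higher in every exposed culture and in acetaldehyde its log2 difference was the highest on the values as deposited. Its intensity was 266 in ethanol and 699 in acetaldehyde, against 38.6 in the untreated control. The clone had 1138 and its control 36.7. Both controls were under the median of their table, 70.2 for the first 3 arrays and 92.0 for the clone and its control, and both were also under the median of their own array, with 35.7% and 27.4% of probes dimmer. The 3 exposed cultures lay well above it, with 76.7% of probes dimmer in ethanol, 89.5% in acetaldehyde and 93.1% in the clone.

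In these data the median of a table served as a floor, and a gene was counted as 2-fold different where the brighter array reached it. Where the dimmer array was under the floor, the brighter value was divided by the floor, which gives a lower bound on this scale. HAS2 was at least 3.79-fold higher in ethanol (log2 difference 2.79), at least 9.95-fold higher in acetaldehyde (4.18) and at least 12.4-fold higher in the clone (4.95). Ranked from the highest, these stood at place 32 of 11264 genes in ethanol, 1 of 11194 in acetaldehyde and 14 of 12262 in the clone. These places depend on the dim controls, and with values under the floor raised to it they were 71, 2 and 18. HAS2 was among the genes chosen with these values known, so the ranks describe it and support nothing further. In bulk RNA, a larger share of cells with a transcript and more transcript per cell cannot be told apart.

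Set directly against ethanol, acetaldehyde gave 2.62-fold more HAS2 signal, a log2 difference of 1.39 at place 119 of 11221. The order of the levels was therefore acetaldehyde, ethanol, control, with no spread between cultures to set against the steps. The doses were 1% and 2.5%, so the comparison is not at matched dose. HAS2 was the only measured gene of the 9 that was at least 2-fold apart between the compounds.

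**Figure D1:**
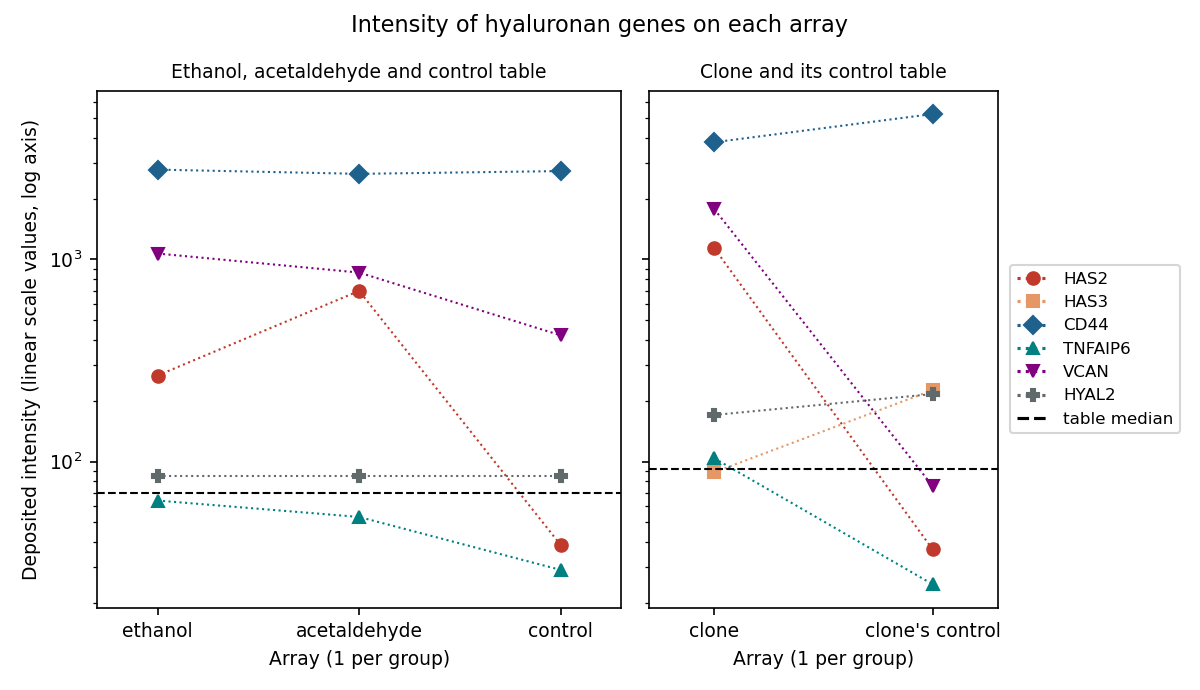
Deposited intensity on a log axis for the 6 measured hyaluronan genes on each array, 1 array per group, with the 2 tables in separate panels; the dashed line is the table median, lines join the values of one gene, and heights of different genes are not comparable. HAS2 lay under the median in both controls (38.6 and 36.7) and above it in ethanol (266), acetaldehyde (699) and the clone (1138), while CD44 stayed between 2651 and 2782 in the first panel.

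HAS3, a synthase known for making shorter chains, was measured for the clone only and ran the other way. It had an intensity of 88.5 in the clone against 226 in its control. The clone value was just under the floor of 92.0, so HAS3 was at least 2.45-fold lower (log2 difference -1.35), the 403rd lowest of 12262 genes. The clone thus had more signal for one synthase and less for another, on 2 arrays.

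The hyaluronan-binding genes differed from each other. VCAN was higher in every exposed culture, TNFAIP6 had its highest values in the same cultures but was dim, and CD44 was bright on every array and close to its control. The 250 bases before the transcription start of these 3 genes are shown so that VCAN, and TNFAIP6 despite its dim signal, can be set beside CD44. They are read from RefSeq on GRCh38.p14, plus strand, at chr5:83471494-83471743 for VCAN, chr2:151357342-151357591 for TNFAIP6 and chr11:35138921-35139170 for CD44, and capitals mark motif matches.
VCAN: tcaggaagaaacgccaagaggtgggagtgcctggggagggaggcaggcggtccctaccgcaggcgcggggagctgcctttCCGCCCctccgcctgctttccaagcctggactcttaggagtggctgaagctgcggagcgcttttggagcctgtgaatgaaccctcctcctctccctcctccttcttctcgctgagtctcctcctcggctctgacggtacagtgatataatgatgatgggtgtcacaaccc
TNFAIP6: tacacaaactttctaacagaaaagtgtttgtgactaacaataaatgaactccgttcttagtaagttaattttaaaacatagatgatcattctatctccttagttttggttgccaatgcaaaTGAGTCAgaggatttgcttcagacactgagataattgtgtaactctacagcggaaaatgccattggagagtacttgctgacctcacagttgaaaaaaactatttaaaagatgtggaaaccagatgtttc
CD44: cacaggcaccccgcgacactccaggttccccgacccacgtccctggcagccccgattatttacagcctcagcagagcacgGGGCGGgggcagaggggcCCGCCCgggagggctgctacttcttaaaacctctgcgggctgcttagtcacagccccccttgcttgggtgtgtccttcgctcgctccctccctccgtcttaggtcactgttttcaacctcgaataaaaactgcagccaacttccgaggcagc

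The motifs searched on both strands were the TATA box TATAAA, the AP-1 site TGANTCA, the GC box GGGCGG, the E-box CAGGTG that ZEB factors bind and the TEAD site GGAATG. These motifs do not overlap one another in the 3 windows. The TNFAIP6 window held 1 AP-1 site, TGAGTCA, whose first letter lies 129 bases before the start, and 6.57% of 35116 RefSeq promoter windows of that length hold such a site. VCAN held 1 GC box and CD44 held 2, a motif found in 42.6% of windows. The other motifs, found in 10.7% (TATA box), 17.5% (E-box) and 11.9% (TEAD site) of windows, were not in these letters. The TNFAIP6 window was 34.4% G and C, against 60.8% for VCAN, 62.4% for CD44 and a median of 58% over all windows. No motif was common to VCAN and TNFAIP6, and a match is only a description of the letters. Of the 9 listed genes, 8 had an entry in the promoter table, and HAS2 was the one without, so its promoter is not shown.

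VCAN had intensities of 1069 in ethanol and 861 in acetaldehyde, against 421 in the control. It was 2.54-fold higher in ethanol (log2 difference 1.34, place 180) and 2.05-fold higher in acetaldehyde (1.03, place 109). In the clone it had 1774, against 75.6 in the clone's control, which is under the floor. This was at least 19.3-fold higher, a log2 difference of 4.55 at place 27 of 12262. Unlike HAS2, VCAN was lower in acetaldehyde than in ethanol, by a log2 difference of -0.31, which did not reach 2-fold. The acetaldehyde value is close to the 2-fold limit, and 1.03% of genes in that comparison had a difference at least as large.

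TNFAIP6 had 64.1 in ethanol and 53.2 in acetaldehyde, against 29.1 in the control, and all 3 values were under the floor of 70.2. No fold is given for them, and their log2 differences were 1.14 and 0.87. The clone had 104 against 24.7 in its control, a log2 difference of 2.07. The clone was only just over its floor of 92.0, so the bound is at least 1.13-fold higher. The gene was thus measured above the floor on 1 of 5 arrays.

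CD44 had 2782 in ethanol, 2651 in acetaldehyde and 2736 in the control, where at least 97.9% of probes were dimmer. Its log2 differences were 0.02 in ethanol, -0.05 in acetaldehyde and -0.07 for acetaldehyde against ethanol. In the clone it had 3800 against 5241 in the clone's control, 1.38-fold lower, at a log2 difference of -0.46. There 51.9% of genes differed by at least as much. One probe set stands for the whole gene here, so splice forms of CD44, which differ between epithelial and mesenchymal cells, were not separated, and likewise for those of versican.

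HYAL2, which cuts long hyaluronan at the cell surface, was the only hyaluronidase measured. It had the same deposited intensity, 84.5, on the ethanol, acetaldehyde and control arrays. Equal values were common in that table, where 43.9% of probes were equal in ethanol and control and 48.2% in acetaldehyde and control. In the clone HYAL2 had 170.0 against 216 in its control, 1.27-fold lower, at a log2 difference of -0.34. That table held few ties, 1.02% of probes.

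**Figure D2:**
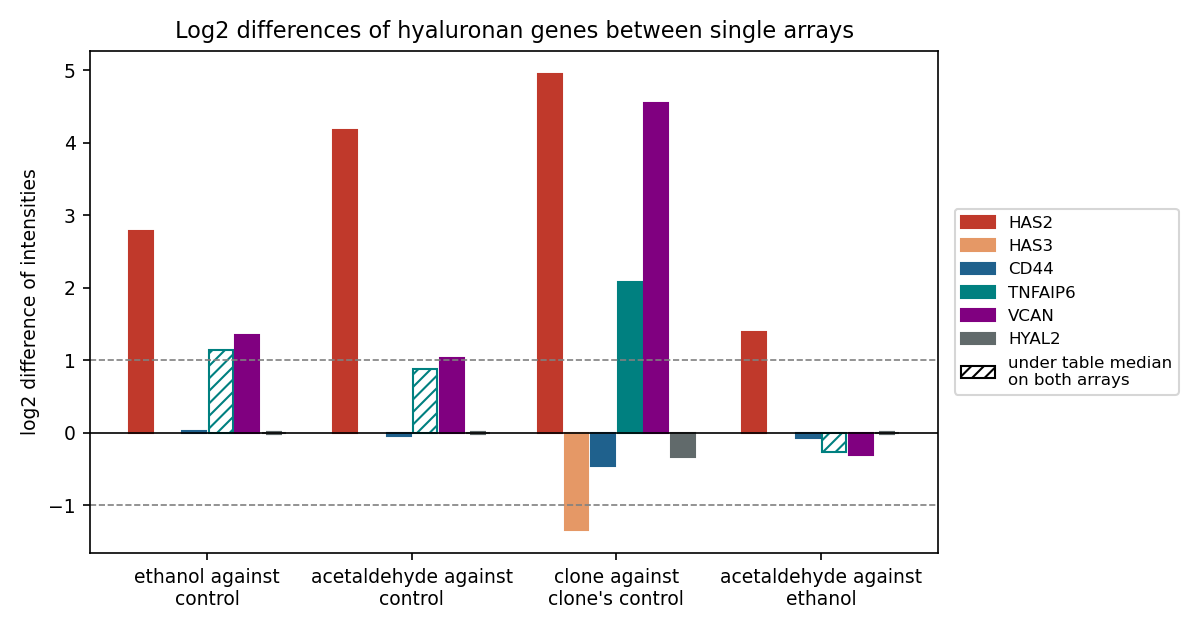
Log2 difference of intensity (bars, 1 array against 1 array) for the 6 measured genes in 4 comparisons, with dashed lines at 2-fold and hatched bars where both arrays were under the table median; HAS3 was measured for the clone only. HAS2 reached 2.79, 4.18 and 4.95 against control, VCAN 1.34, 1.03 and 4.55, and the HYAL2 bars are at 0 wherever the first table is used.

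Counted over the list, 4 of the 5 genes measured in ethanol had a value at or above the floor, of which 2 were at least 2-fold higher and 0 lower. Over all genes 2.63% were that much higher and 2.44% lower. In acetaldehyde the counts were the same, 2 of 4 higher (HAS2 and VCAN) and 0 lower, where 1.03% of all genes were higher and 0.0536% lower. In the clone all 6 measured genes were at or above the floor on 1 array or both, with 3 higher (HAS2, TNFAIP6 and VCAN) and 1 lower (HAS3). There 14.7% of all genes were higher and 5.83% lower. For acetaldehyde against ethanol 1 of 4 was higher and 0 lower, against 1.85% and 0.526% of all genes. Because the genes were chosen with these differences in view, nothing is read from the counts against those percentages.

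The medians of the same genes were 0.68 in ethanol, 0.52 in acetaldehyde and 0.86 in the clone on the log2 scale. They rest on 4, 4 and 6 genes at or above the floor, and the medians over all genes were 0, 0 and -0.02. As with the counts, nothing is read from this contrast, because the genes were chosen with the values known. The clone median also draws on TNFAIP6, at 2.07 there but 0.17 with dim values raised to the floor. Ethanol and acetaldehyde share 1 control array, so a low value there would raise both differences at once. The clone comparison uses neither of those arrays.

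**Figure D3:**
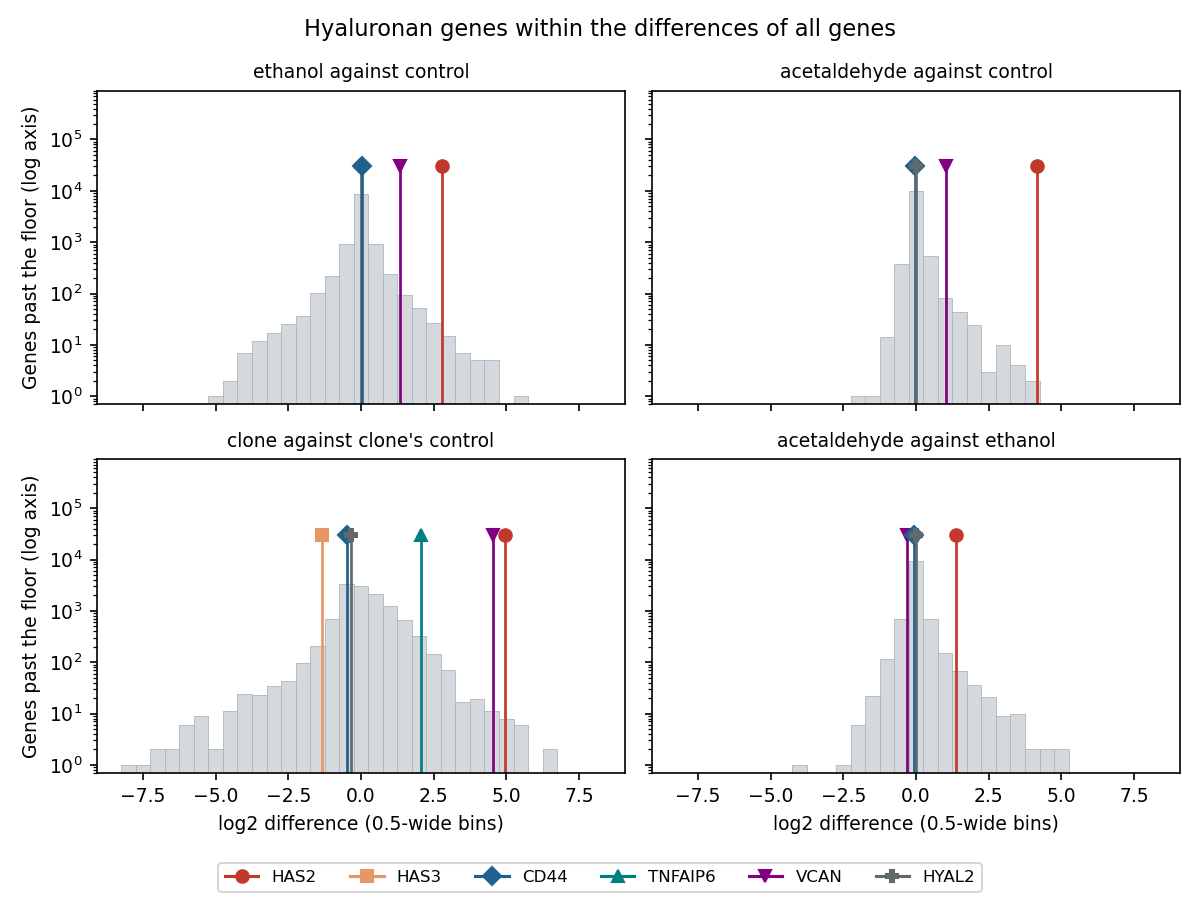
Number of genes (log axis) by log2 difference in bins of 0.5 for each comparison, among genes whose brighter array reached the table median, with vertical lines and symbols at the hyaluronan genes. HAS2 stood at the far right edge in acetaldehyde (4.18 on the values as deposited), while CD44 and HYAL2 lay near the centre of every panel.

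The rest of the pathway was described with 67 further genes grouped by role, with 61 of them measured in each table. Among them 3 were at least 2-fold higher and 2 lower in ethanol, out of 40 at or above the floor. In acetaldehyde 2 of 39 were higher and 0 lower, and in the clone 9 of 45 were higher and 0 lower. The shares over all genes were 2.63% higher and 2.44% lower in ethanol, 1.03% and 0.0536% in acetaldehyde, and 14.7% and 5.83% in the clone. With values under the floor raised to it, 5 were higher in the clone. For acetaldehyde against ethanol 1 of 40 was higher and 1 lower, where 1.85% and 0.526% of all genes were. The medians were 0.05, 0, 0.13 and 0 in the same order. These genes are background to HAS2 and VCAN, and most stood near their control. Equal values were common in the first table, at 30.7% of all genes past the floor in ethanol and 37.9% in acetaldehyde. A 0 there can therefore be a tie.

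Enzymes that make the sugar precursors of the chain showed no 2-fold difference in any comparison. All 5 measured, UGP2, UGDH, GFPT1, GNPNAT1 and UAP1, were at or above the floor. Their log2 differences ran between -0.26 and 0.60 in ethanol, -0.14 and 0.21 in acetaldehyde, and -0.35 and 0.62 in the clone. The highest in ethanol was UGDH, which makes the glucuronic acid precursor, at 469 against 309 in the control.

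Versican carries chondroitin sulfate chains, and 1 of 12 chain enzymes at or above the floor, CSGALNACT1, was higher both in ethanol and in acetaldehyde. CSGALNACT1, which starts these chains, had 285 in ethanol and 164 in acetaldehyde, against 55.6 in the control. It was at least 4.07-fold and at least 2.33-fold higher, with log2 differences of 2.36 and 1.56. In the clone it had 216 against 26.4 in the clone's control, at least 2.35-fold higher, with a log2 difference of 3.03. B4GALT7, which acts on the linker that joins the chain to its protein, was also 2.30-fold higher in the clone, at 492 against 214, and the other 11 of 13 chain enzymes did not reach 2-fold.

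Of the ADAMTS proteases known to cut versican, 2 of 5 measured were at or above the floor. ADAMTS9 had 243 in ethanol and 161 in acetaldehyde, against 55.8 in the control, at least 3.46-fold and at least 2.29-fold higher. In the clone it had 145 against 60.2 in the clone's control, at least 1.58-fold higher, with a log2 difference of 1.27. ADAMTS1 had 307 in the clone against 39.5 in the clone's control, at least 3.34-fold higher. Its log2 differences were 0.67 in ethanol and 0.84 in acetaldehyde, under 2-fold. On the values as deposited, CSGALNACT1 and ADAMTS9 were the 2 related genes counted as 2-fold higher against control in all 3 comparisons. With values under the floor raised to it, CSGALNACT1 was still counted in all 3 and ADAMTS9 no longer in the clone. With the floor at the 75th percentile, both were counted in ethanol only.

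Among other binders of hyaluronan, the dimmer array was under the floor in each difference past 2-fold. PTX3, whose product joins TNFAIP6 in linking hyaluronan chains, had 87.3 in ethanol and 42.4 in acetaldehyde, against 35.9 in the control, so only ethanol reached the floor. In the clone PTX3 had 130.0 against 16.9 in its control, at least 1.41-fold higher. TLR4, an immune receptor reported to sense hyaluronan fragments, had 155 in the clone against 23.5, and HMMR, a receptor that also serves in the mitotic spindle, had 159 against 44.8. Their bounds were at least 1.69-fold and at least 1.73-fold higher. On the first 3 arrays HMMR was above the floor throughout, at 472 in ethanol, 445 in acetaldehyde and 410 in the control. The other 11 of 14 binders at or above the floor in the clone did not reach 2-fold.

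Among the other breakdown enzymes CEMIP2, described as a cell surface hyaluronidase, was 3.96-fold higher in the clone, at 383 against 96.5 in the clone's control. In ethanol and acetaldehyde it had 240 and 253, against 170 in the control, with log2 differences of 0.50 and 0.58. No other breakdown enzyme reached 2-fold in any comparison.

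Partners of CD44 included a pair of splicing factors that keep its epithelial splice forms. ESRP1 had 197 in ethanol and 1709 in acetaldehyde, against 2212 in the control. It was 11.2-fold lower in ethanol (log2 difference -3.49), had a log2 difference of -0.37 in acetaldehyde, and was 8.67-fold higher in acetaldehyde than in ethanol. ESRP2 had 159 in ethanol and 292 in acetaldehyde, against 341 in the control, 2.14-fold lower in ethanol. In the clone ESRP2 had 218 against 393, a log2 difference of -0.85. ESRP1 and EZR, another listed CD44 partner, had no probe set with a single symbol there. The total signal of CD44 differed by at most 0.07 on the log2 scale among the 3 arrays of this table. NF2, whose product merlin sits beneath CD44, was 2.05-fold higher in the clone, at 303 against 148. It was no longer counted as 2-fold higher with the arrays quantile-normalised again. The remaining measured partners and sheddases did not reach 2-fold.

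**Figure D4:**
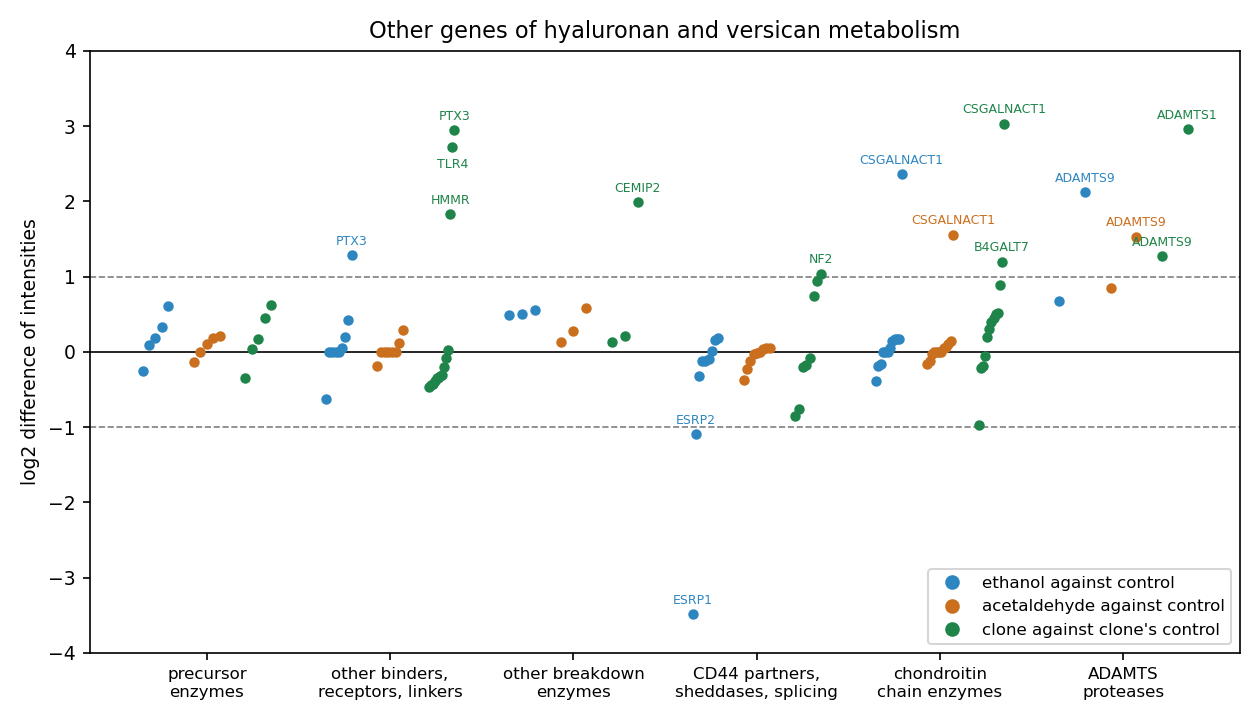
Log2 difference from control (y axis, 1 array against 1 array) for the hyaluronan-related genes at or above the table median, grouped by role, with one colour per comparison, dashed lines at 2-fold and names for genes past them. CSGALNACT1 (2.36, 1.56 and 3.03) and ADAMTS9 (2.12, 1.53 and 1.27) were past the line in ethanol, acetaldehyde and the clone on the values as deposited, whereas ESRP1 was lower in ethanol at -3.49.

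The genes nearest to HAS2 and VCAN were found by the Euclidean distance over the 3 log2 differences from control, among 10444 other genes. For HAS2 they were DSEL, FN1, ANGPT1, PDE8B and LPAR1, at distances between 1.29 and 1.65. DSEL, an epimerase-like gene of dermatan sulfate, had differences of 3.33 in ethanol, 3.03 in acetaldehyde and 4.77 in the clone. All 5 had a lower difference in acetaldehyde than in ethanol, the opposite of HAS2, and none was nearer than 1.29. VCAN had closer neighbours, namely THBS1, ANTXR1, TFPI, FBN1 and TYMS, at distances between 0.25 and 0.88. THBS1, which encodes the matrix protein thrombospondin, had 1.24, 0.92 and 4.75 in the same order. These distances rest on 5 arrays, with the control array shared by 2 of the differences.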

How the data were processed

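The authors deposited RMA values, here intensity without a log, per the submitters' processing notes. RMA, of unstated version, removes background, normalises arrays together and summarises each probe set. The 2 tables, of 3 and 2 arrays and of different array designs, were treated as normalised separately, and differences were taken only within a table. From the deposited intensities, log2 values and differences were computed with python 3.11.15, numpy 2.4.6 and pandas 2.3.3. Probe sets with exactly 1 symbol were used, 19181 and 19460 of 33297, and the brightest by table mean stood for its gene. The floor is each table's median, not a measured background. Genes at or past 2-fold whose brighter array reached the floor were counted. The counting was checked on simulated data. The members, lists, motifs and rule for named genes (list genes past 2-fold, up to 4 per role, and 5 nearest genes) were chosen with earlier results of these data known. No test was possible with 1 array per group. The 8 alternatives covered the floor, the fold, centring, quantile normalisation, the mean of probe sets and dim values raised to the floor.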

Additional observations from a re-analysis of the deposited data

How the results depend on the processing

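With 1 array per group, no left-out replicate and no replicate block could be tried. No paired analysis was possible because each group has 1 array. Of 128 counts recomputed under 8 alternatives, 117 stayed within 1.5 times their value. Some of these were fixed in advance. Centring shifted nothing among the first 3 arrays. The mean of probe sets left the listed genes unchanged, since each measured one had a single probe set per table. With the floor at the 75th percentile, the genes of the 9 at least 2-fold lower in the clone numbered 0, since HAS3 was no longer counted, and the related genes at least 2-fold higher numbered 0 in acetaldehyde and 4 in the clone, while those lower in acetaldehyde than in ethanol numbered 0. At 1.5-fold the related genes higher in ethanol numbered 5, those lower in the clone 3, and those higher and lower in acetaldehyde against ethanol 2 and 3. Quantile normalisation gave 1 related gene lower in the clone and 8 higher, without NF2. With dim values raised to the floor, 5 related genes were higher in the clone, without ADAMTS9, HMMR, PTX3 and TLR4, and 0 lower in acetaldehyde against ethanol. Among the 6 measured genes of the 9, no difference past 2-fold changed sign under quantile normalisation, or under centring in the clone. The mean of probe sets and dim values raised to the floor could not reverse a sign, so they do not bear on this. Raising dim values reduced the log2 difference of HAS2 to 1.92 in ethanol, 3.31 in acetaldehyde and 3.63 in the clone, and that of TNFAIP6 in the clone to 0.17, under 2-fold. Centring added 0.17 to each difference in the clone. Signal under or just over the floor limits TNFAIP6, HAS3 in the clone and both HAS2 controls.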

Other observations

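The 2 controls of the line, which lie in different tables, had unlike VCAN values. VCAN had 421 in the control for ethanol and acetaldehyde, where 83.5% of probes were dimmer, and 75.6 in the clone's control, where 44.4% were dimmer. For HAS2 the controls had 38.6 and 36.7, with 35.7% and 27.4% of probes dimmer. The larger VCAN difference in the clone comes with this lower control value as well as with a higher value in the clone, 1774 against 1069 in ethanol. Array design and culture cannot be told apart in these levels, since the tables were treated as normalised separately.

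Genes beside the hyaluronidases on the same chromosome stood near their controls. IFRD2, RASSF1, SEMA3B and SEMA3F had log2 differences between -0.37 and 0.26 in ethanol and between 0 and 0.10 in acetaldehyde. In the clone these and LSMEM2 lay between -0.90 and 0.58. The lowest was LSMEM2, measured for the clone only, at 117 against 219 in its control. CEMIP, a hyaluronidase gene, had the same intensity of 41.8 in ethanol, acetaldehyde and the control, and was under the floor on all 5 arrays. IFRD2 was likewise equal on those arrays. Ties are common there, as given for HYAL2, so equal values are not read as measured stability.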
